A study of Mus musculus with 4 samples.

Results

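The genes described here encode the cohesin complex, its loading and release factors, and Ctcf. They are 10 genes chosen by name: *Smc1a*, *Smc3*, *Rad21*, *Stag1*, *Stag2*, *Nipbl*, *Wapl*, *Pds5a*, *Pds5b* and *Ctcf*. All 10 were found in the table of 12067 genes by an exact match of the gene symbol, and none was removed by the filter on low counts. The data are Quant-seq libraries, in which priming at the poly-A tail places the reads near the 3′ end of each transcript, from donor-derived KL cells (cKit-positive, Sca1-negative, lineage-negative myeloid progenitors) of mouse bone marrow. There were 4 libraries, 2 of each genotype, isolated from Ptprca recipients after a transplant. The study describes transplants of whole marrow and of sorted KL cells, assessed at different times, and the sources used here do not say which kind gave these libraries or when they were sorted. BcorΔE9-10 donors carried scl-Cre-ERT and Bcorfl/y, and BcorWT donors carried Bcorfl/y without the Cre transgene, so the *Bcor* allele of both was flanked by loxP sites. Cre was driven by stem-cell sequences of *Tal1* (Scl), so recombination took place in stem cells, and the study describes tamoxifen for both genotypes, 5 mg in all at 3 to 6 months of age. Recombination removes exons 9 and 10 of *Bcor* and leaves a truncated protein. The recipients were female, sub-lethally irradiated with 5.5 Gy, and kept blood cells of their own. The labels do not say whether each library came from a separate recipient, so the p-values measure only the spread between these libraries.

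Cohesin is a ring of the SMC proteins Smc1a and Smc3, closed by the kleisin Rad21 and bound by either Stag1 or Stag2. Nipbl loads the ring onto chromatin and drives the extrusion of DNA loops, Wapl with Pds5a or Pds5b opens the ring and releases it, and Ctcf, a zinc-finger protein, stops extruding cohesin at its binding sites. The complex holds sister chromatids together until mitosis and shapes contacts between enhancers and promoters, and genes of its subunits, STAG2 most often, are recurrently mutated in human myeloid leukaemia.

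Promoter windows from RefSeq (GRCm38.p6, from 250 bases before to 50 bases after the RefSeq start) were matched by symbol for 7 of the 10 genes, *Smc1a*, *Smc3*, *Stag1*, *Wapl*, *Pds5a*, *Pds5b* and *Ctcf*. Those of *Smc1a* and *Pds5a*, the genes with the smallest and the largest log2 fold change among the 10, and of *Smc3*, the partner of *Smc1a* in the ring, are shown for the 250 bases upstream of the start, 5′ to 3′ on the strand of the gene. Capitals mark a GC box (GGGCGG) or a CCAAT box (CCAAT), each searched on both strands.
Smc1a promoter, chrX:152016178-152016427, plus strand: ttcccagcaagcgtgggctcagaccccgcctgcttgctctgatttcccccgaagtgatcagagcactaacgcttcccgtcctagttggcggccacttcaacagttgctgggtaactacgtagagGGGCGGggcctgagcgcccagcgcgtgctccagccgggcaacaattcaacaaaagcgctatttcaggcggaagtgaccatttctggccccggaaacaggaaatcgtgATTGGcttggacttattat
Smc3 promoter, chr19:53600146-53600395, plus strand: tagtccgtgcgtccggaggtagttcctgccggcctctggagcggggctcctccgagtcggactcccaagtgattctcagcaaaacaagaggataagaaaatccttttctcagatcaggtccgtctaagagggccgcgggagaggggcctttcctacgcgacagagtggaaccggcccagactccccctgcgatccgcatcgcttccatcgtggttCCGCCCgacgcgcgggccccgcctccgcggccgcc
Pds5a promoter, chr5:65698237-65698486, minus strand: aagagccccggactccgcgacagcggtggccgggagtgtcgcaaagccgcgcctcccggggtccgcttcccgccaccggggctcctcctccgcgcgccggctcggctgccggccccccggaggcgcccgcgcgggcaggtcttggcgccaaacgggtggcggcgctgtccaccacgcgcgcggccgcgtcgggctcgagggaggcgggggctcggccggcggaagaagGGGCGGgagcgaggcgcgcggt
The windows were rich in CpG. They held 23 CpG for *Smc1a*, 32 for *Smc3*, 35 for *Wapl*, 41 for *Pds5b*, 43 for *Stag1*, 47 for *Ctcf* and 55 for *Pds5a*, against a median of 7 over the 32851 promoter windows of the table. A GC box was present in all 7 windows and in 35.7% of all windows, and a CCAAT box in 4 of the 7 and in 37.4% of all windows. An Ets core (CCGGAAG, 8.86% of all windows), an E-box (CACGTG, 7.15%) and the palindromic Nrf1 core (0.971%), each searched on both strands, were in 0 of the 7, which says only that these letters are not in these windows. No motif match overlapped another in any of the 7 windows. The *Stag1* window (chr9:100643198-100643497) lay inside the gene as annotated in GENCODE M21, which starts at chr9:100597798. For *Ctcf*, the 50 bases after the RefSeq start were not found in a GENCODE M21 transcript of the gene.

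The libraries held 5058140 and 6253100.5 counts in BcorΔE9-10 and 3825289.5 and 4992205 in BcorWT, in the order of the replicates, so that 3 counts corresponded to 0.489 to 0.876 CPM (counts scaled to library size, TMM-adjusted). The 2 BcorWT libraries were the least alike of the 6 pairs, with a Pearson correlation of 0.893 over log2 CPM of 12067 genes, against 0.947 for the BcorΔE9-10 pair. The rRNA-like transcript *Gm42418* took between 1.43% (BcorWT replicate 2) and 27.9% (BcorWT replicate 1) of the counts. Mitochondrial genes took between 1.22 and 1.73%. *Bcor* itself had 104 and 113 counts in BcorΔE9-10 and 58 and 79 in BcorWT. These counts are not scaled for the library totals, which were lower in BcorWT. The 3′ reads of *Bcor* lie outside the deleted exons and do not check the genotype. *Kit*, the marker of the gate, was at 52.1 and 61.9 CPM in BcorΔE9-10 and at 53.7 and 29.4 CPM in BcorWT, lowest in BcorWT replicate 2. *Ly6a*, which encodes Sca1, was low, at 0 and 20 counts in BcorΔE9-10 and 13 and 6 in BcorWT.

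All 10 genes had a higher mean level in BcorΔE9-10 than in BcorWT KL cells, with log2 fold changes in edgeR between 0.24 (*Smc1a*) and 0.90 (*Pds5a*) and a median of 0.46. Without BcorWT replicate 2 the median was 0.23 and *Stag1* was at -0.026, so that 9 of the 10 were higher. Over all 12067 genes the median was -0.027 and 47.7% of genes had a log2 fold change above 0. The 2 genotypes did not overlap for 8 of the 10 genes, whereas 16.8% of all genes were higher in BcorΔE9-10 without overlap. No gene of the 10 passed the test. At an adjusted p under 0.05 edgeR called 0 of the 10 genes and 0.0166% of all genes, and at an unadjusted p under 0.05 it called 0 of the 10 and 4.42% of all genes. With DESeq2 the counts were also 0 and 0, against 0.356% and 4.19% of all genes. With limma-voom they were 0 and 1 (*Pds5a*), against 0.0331% and 4.27% of all genes. In bulk libraries, fewer cells of a type and less RNA per cell cannot be told apart, and this holds for every difference given here.

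**Figure D1:**
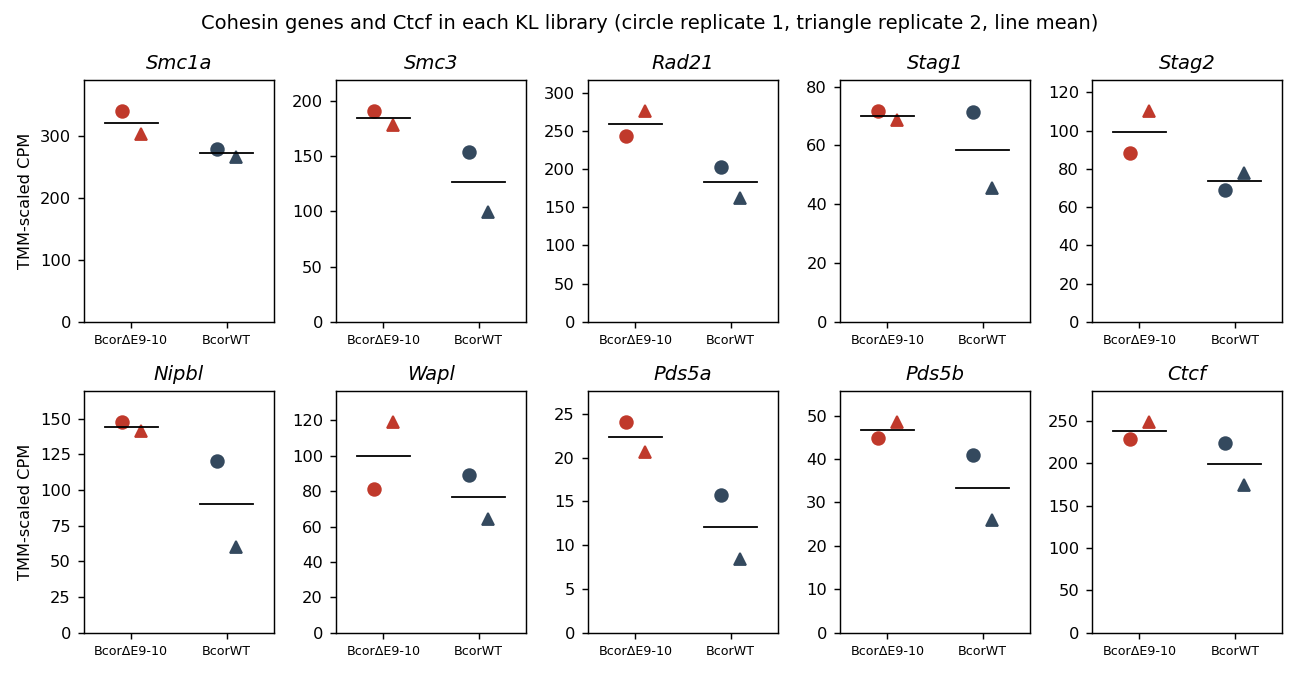
Level of each gene in each library, as CPM scaled by TMM factors, on axes that start at 0. Circles are replicate 1, triangles replicate 2, and lines the mean of 2 libraries. The 2 genotypes overlap only for *Stag1* and *Wapl*, and the triangle of BcorWT is the lowest point in 9 of the 10 panels.

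The ring genes were read first. *Smc1a* (ENSMUSG00000041133, chrX:152016428-152062694, GRCm38) had 1842 and 1867 counts in BcorΔE9-10 and 956 and 1415 in BcorWT, or 340.4 and 304.3 CPM against 279.2 and 266.3 CPM. Both BcorΔE9-10 libraries lay above both BcorWT libraries, and the log2 fold change of 0.24 (standard error 0.31, 95% interval -0.48 to 0.96, edgeR adjusted p = 0.956) was the smallest of the 10. It was 0.16 without BcorΔE9-10 replicate 1. *Smc3* (ENSMUSG00000024974, chr19:53600398-53645833), which pairs with Smc1a at the hinge, had 1029 and 1094 counts against 525 and 526, or 190.2 and 178.3 CPM against 153.3 and 98.98 CPM. Its groups did not overlap either, but BcorWT replicate 1 stood closer to BcorΔE9-10 than to its own replicate. The log2 fold change was 0.55 (standard error 0.34, 95% interval -0.25 to 1.34). It was 0.26 without BcorWT replicate 2 and 0.89 without BcorWT replicate 1. *Rad21* (ENSMUSG00000022314, chr15:51962240-51991747), the subunit that separase cuts at anaphase, had 1318 and 1689 counts against 696 and 859, or 243.6 and 275.3 CPM against 203.3 and 161.6 CPM. The gap between the genotype means, 77.0 CPM, was larger than the 41.6 CPM between the BcorWT libraries. The log2 fold change was 0.51 (standard error 0.32, 95% interval -0.23 to 1.25), a 1.42-fold higher level that did not pass the test.

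The alternative SA subunits differed in which libraries set the gap. *Stag2* (ENSMUSG00000025862, chrX:42149317-42277185) had 477 and 675 counts in BcorΔE9-10 and 237 and 415 in BcorWT, or 88.2 and 110.0 CPM against 69.2 and 78.1 CPM. It was the only gene of the 10 whose lowest library was BcorWT replicate 1, and its groups did not overlap (log2 fold change 0.43, standard error 0.31, 95% interval -0.30 to 1.16, and 0.26 without BcorΔE9-10 replicate 2). *Stag1* (ENSMUSG00000037286, chr9:100597798-100959375) had 387 and 420 counts against 244 and 241, or 71.5 and 68.5 CPM against 71.3 and 45.4 CPM. Here BcorWT replicate 1 lay between the BcorΔE9-10 libraries, and the log2 fold change of 0.27 (standard error 0.34, 95% interval -0.52 to 1.06) came to -0.026 without BcorWT replicate 2. *Stag2* and *Smc1a* lie on the X chromosome, as does *Bcor*.

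*Nipbl* (ENSMUSG00000022141, chr15:8290617-8444463), the loader, had 797 and 866 counts in BcorΔE9-10 and 413 and 320 in BcorWT. Its level was 147.3 and 141.2 CPM against 120.6 and 60.2 CPM, so the BcorΔE9-10 libraries were close together and the BcorWT libraries differed 2.00-fold. The log2 fold change was 0.68 (standard error 0.39, 95% interval -0.23 to 1.59, edgeR adjusted p = 0.945). *Nipbl* was the only gene of the 10 to pass under any alternative. Without BcorWT replicate 1 its log2 fold change was 1.26 (standard error 0.29) with an edgeR adjusted p of 0.0421, in a range from 0.0421 to 1.00 over the alternatives. In that fit 596 genes passed over the whole table, and 1.52% of all genes were called higher in BcorΔE9-10. At an unadjusted p under 0.05 that fit called 5 of the 10 genes (*Nipbl*, *Pds5a*, *Pds5b*, *Rad21* and *Smc3*) and 11.9% of all genes higher in BcorΔE9-10. Without BcorWT replicate 2 edgeR called 0 of the 10 genes at an adjusted or an unadjusted p under 0.05, against 0.108% and 2.18% of all genes called higher in BcorΔE9-10, and the log2 fold change of *Nipbl* was 0.26.

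Of the release factors, *Wapl* (ENSMUSG00000041408, chr14:34673928-34747983) had 439 and 729 counts against 305 and 341, or 81.1 and 118.8 CPM against 89.1 and 64.2 CPM. The BcorΔE9-10 libraries were themselves far apart, BcorWT replicate 1 lay between them, and the log2 fold change was 0.39 (standard error 0.35, 95% interval -0.43 to 1.20). It was 0.089 without BcorΔE9-10 replicate 2 and 0.17 without BcorWT replicate 2, but 0.63 without BcorΔE9-10 replicate 1 and 0.64 without BcorWT replicate 1. *Pds5a* (ENSMUSG00000029202, chr5:65605721-65698273) had the fewest counts of the 10, 130 and 127 in BcorΔE9-10 and 54 and 45 in BcorWT, or 24.0 and 20.7 CPM against 15.8 and 8.47 CPM. It also had the highest log2 fold change of the 10, 0.90 (standard error 0.42, 95% interval -0.084 to 1.88). Its edgeR adjusted p over all genes was 0.945. The value was 1.39 without BcorWT replicate 1 and 0.50 without BcorWT replicate 2, where *Stag2* (0.52) was the highest of the 10. Both BcorΔE9-10 libraries were above both BcorWT libraries, but the 1.86-fold difference did not pass. *Pds5b* (ENSMUSG00000034021, chr5:150673739-150810690) had 243 and 297 counts against 140 and 138, or 44.9 and 48.4 CPM against 40.9 and 26.0 CPM. BcorWT replicate 1 was again just under the BcorΔE9-10 libraries, and the log2 fold change was 0.49 (standard error 0.35, 95% interval -0.31 to 1.29). It was 0.19 without BcorWT replicate 2 and 0.84 without BcorWT replicate 1.

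*Ctcf* (ENSMUSG00000005698, chr8:105636568-105682922) had 1239 and 1524 counts in BcorΔE9-10 and 769 and 927 in BcorWT, or 229.0 and 248.4 CPM against 224.6 and 174.4 CPM. BcorWT replicate 1 was just under the lower BcorΔE9-10 library, and BcorWT replicate 2 stood apart from the other three. The log2 fold change was 0.26 (standard error 0.32, 95% interval -0.48 to 1.00, edgeR adjusted p = 0.954). It was 0.088 without BcorWT replicate 2 and 0.45 without BcorWT replicate 1.

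**Figure D2:**
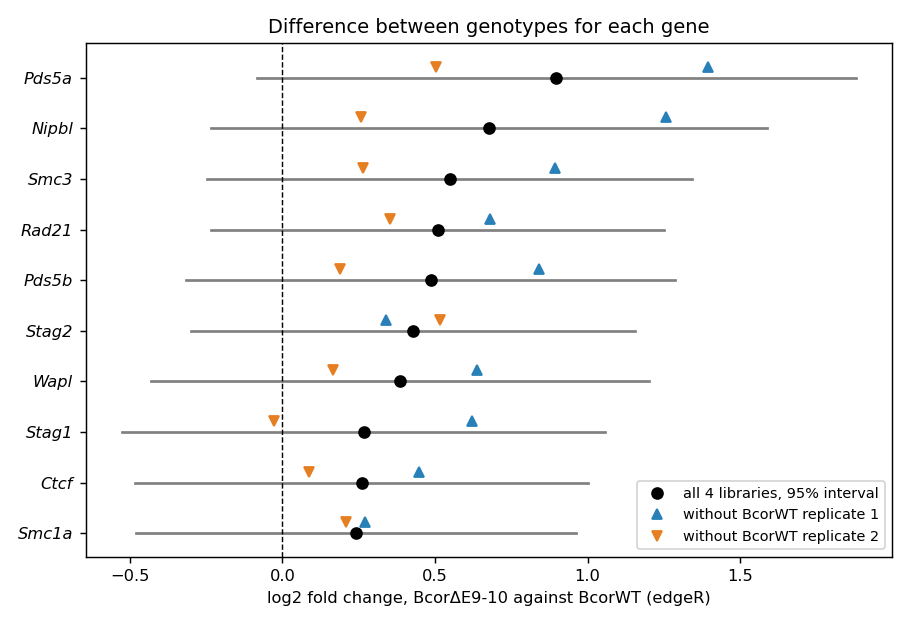
Log2 fold change of BcorΔE9-10 against BcorWT for each gene from edgeR (black, with its 95% interval), and the value with BcorWT replicate 1 (blue) or replicate 2 (orange) left out. All 10 intervals include 0, and the orange points lie between -0.026 and 0.52.

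How far the genes were higher depended on which BcorWT library was the reference. On the scale of log2(CPM + 1), the median of the 10 genes was 0.27 between the replicates 1 of the 2 genotypes and 0.23 between BcorΔE9-10 replicate 2 and BcorWT replicate 1. Against BcorWT replicate 2 it was 0.62 and 0.80. The 2 BcorWT libraries differed from each other by a median of 0.55 (replicate 1 minus replicate 2), with 9 of the 10 genes higher in replicate 1, while the BcorΔE9-10 libraries differed by a median of -0.023. Over all genes the same medians lay between -0.015 and 0.034. Of the 40 single comparisons of a BcorΔE9-10 with a BcorWT library, 38 were higher in BcorΔE9-10. The exceptions were *Wapl* in BcorΔE9-10 replicate 1 and *Stag1* in BcorΔE9-10 replicate 2, each against BcorWT replicate 1. BcorWT replicate 2 was the lowest library for 9 of the 10 genes and for 36.1% of all genes. For 5 genes (*Stag1*, *Nipbl*, *Wapl*, *Pds5b* and *Ctcf*) the gap between the BcorWT libraries was larger than that between the genotype means.

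**Figure D3:**
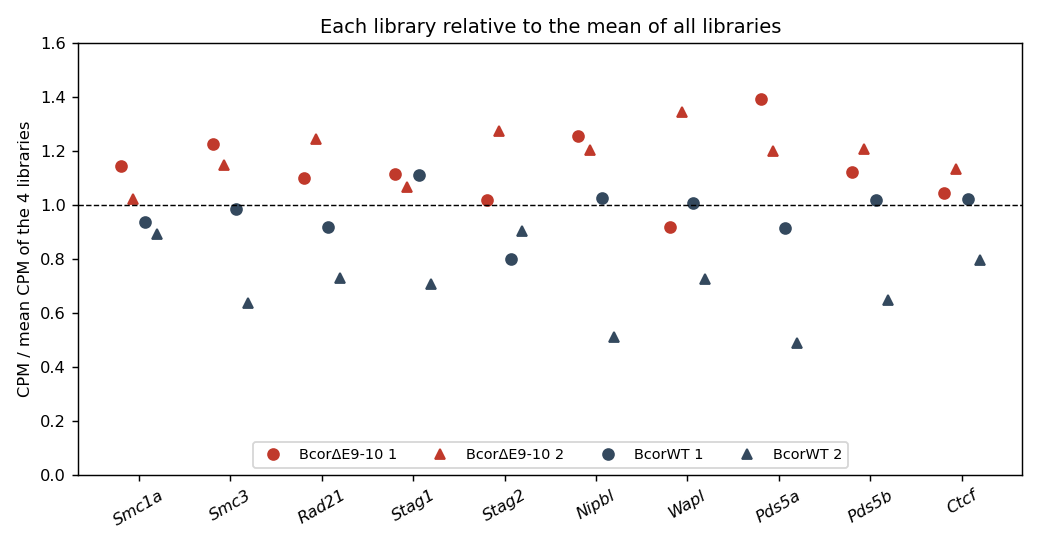
Level of each gene in each library divided by its mean over the 4 libraries, so that 1 (dashed) is the mean. BcorΔE9-10 is red, BcorWT dark blue, circles replicate 1 and triangles replicate 2. BcorWT replicate 2 is the lowest point for 9 of the 10 genes, all but *Stag2*.

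Shares within a library do not depend on scaling between libraries. They compare libraries, not the abundance of paralogues, since 3′ counts of different genes are not on a common scale. *Stag2* made up 55.2% of the *Stag1* and *Stag2* counts in BcorΔE9-10 replicate 1 (95% Wilson interval 51.9 to 58.5%) and 61.6% in replicate 2 (58.7 to 64.5%). In BcorWT it made up 49.3% (44.8 to 53.7%) and 63.3% (59.5 to 66.9%), so BcorWT held both the lowest and the highest share. The means, 58.4 ± 4.55% and 56.3 ± 9.89% (SD, n = 2), did not differ beyond that spread (exact two-sided permutation p = 1). *Pds5b* made up 65.1% and 70.0% of the *Pds5a* and *Pds5b* counts in BcorΔE9-10 and 72.2% and 75.4% in BcorWT. The groups did not overlap, with means of 67.6 ± 3.46% and 73.8 ± 2.29% (SD, n = 2, exact two-sided permutation p = 0.333, the smallest that 2 against 2 libraries allow). The interval of BcorWT replicate 1 (65.5 to 78.0%) included the share in BcorΔE9-10 replicate 2. *Smc1a* made up 64.2% and 63.1% of the *Smc1a* and *Smc3* counts in BcorΔE9-10, 64.6% in BcorWT replicate 1 and 72.9% in BcorWT replicate 2 (70.9 to 74.8%), so a single library stood apart. In all 5 such shares were tested, and the lowest Benjamini-Hochberg adjusted p of the exact permutation tests was 0.833. Of the summed counts of the 10 genes, *Nipbl* took 10.1% and 9.32% in BcorΔE9-10, 9.52% in BcorWT replicate 1 and 6.12% in BcorWT replicate 2, while *Smc1a* took 23.3% and 20.1% in BcorΔE9-10 and 27.1% in BcorWT replicate 2, with BcorWT replicate 1 between the BcorΔE9-10 libraries. The intervals cover counting error only, since no molecular identifiers are described.

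Markers of other cells were read in the same libraries. The summed level of the 10 genes was 1460 and 1514 CPM in BcorΔE9-10, 1267 CPM in BcorWT replicate 1 and 983.6 CPM in BcorWT replicate 2. The 8 monocyte and dendritic markers summed to 791.0 and 792.6 CPM in BcorΔE9-10, 959.0 CPM in BcorWT replicate 1 and 1825 CPM in BcorWT replicate 2. *Ly6c2* gave most of that sum (1365 CPM in BcorWT replicate 2), 6 of the 8 were highest in that library, and 7 of the 8 were lower in BcorΔE9-10. The 4 megakaryocyte markers in the table summed to between 107.9 and 140.8 CPM in 3 libraries and to 265.7 CPM in BcorWT replicate 2, where 3 of the 4 were highest and *Vwf* was lowest. The 4 lymphoid markers in the table summed to between 142.6 and 159.7 CPM in 3 libraries and to 268.7 CPM in BcorWT replicate 2. *Nkg7* alone gave 250.7 CPM of that sum, and *Ebf1* went the other way, with 2.63 CPM in BcorWT replicate 2 as its lowest level. The table held 4 of 8 listed lymphoid, 6 of 8 erythroid, 4 of 6 megakaryocyte and 3 of 6 stem cell genes. Those absent include *Cd3e*, *Cd3g* and *Cd79a* (lymphoid), *Epor* (erythroid), *Gp9* and *Ppbp* (megakaryocyte), and *Mecom* and *Procr* (stem cell). The 6 markers of eosinophils, basophils and mast cells were all lower in BcorΔE9-10 (229.4 and 181.6 CPM against 425.8 and 474.0 CPM), and the 6 erythroid markers in the table were all higher (103.5 and 92.8 CPM against 28.9 and 51.0 CPM). Neutrophil markers, 63364 and 155144 CPM in BcorΔE9-10 and 94398 and 143510 CPM in BcorWT, were present in every library although the sort removed lineage-positive cells. Of the 8 neutrophil markers, 6 were lower in BcorΔE9-10 and 5 were highest in BcorWT replicate 2. The sums of the 10 myeloid progenitor markers ranged from 8336 to 11231 CPM and those of the 3 stem cell markers in the table from 22.8 to 42.3 CPM. Of the progenitor markers 7 were lower and 3 higher in BcorΔE9-10 (median log2 fold change -0.23). All 3 stem cell markers were lower (median -0.093). Of the 49 marker genes in these lists, 0 passed adjustment in edgeR and 9 had an unadjusted p under 0.05, against 4.42% of all genes. These 9 included 4 of the eosinophil, basophil and mast cell list (lower) and 3 of the erythroid list (higher). Their part in the difference of the cohesin genes was not tested.

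**Figure D4:**
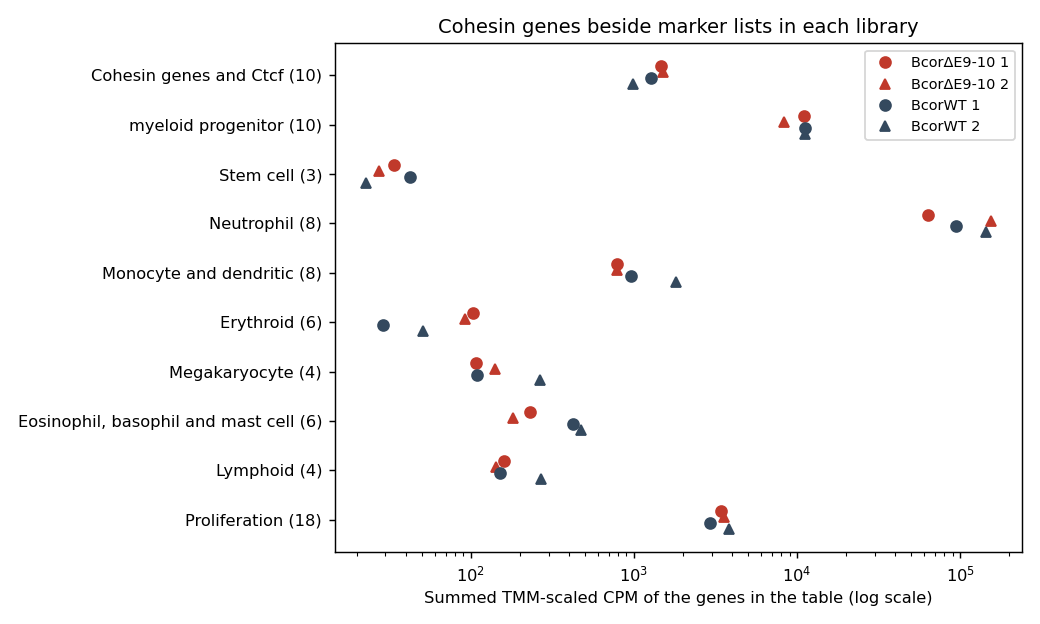
Summed level of the 10 genes and of each marker list in each library, in CPM on a log axis, with the number of genes in brackets. BcorΔE9-10 is red and BcorWT dark blue. BcorWT replicate 2 is lowest for the cohesin genes (983.6) and highest for monocyte and dendritic markers (1825).

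Cohesin acts in the cell cycle, and 18 proliferation markers were read beside them. Of these, 11 were higher and 7 lower in BcorΔE9-10, with a median log2 fold change of 0.12. In edgeR 0 of the 18 had a p under 0.05 before or after adjustment, against 4.42% and 0.0166% of all genes. Their sum was 3445 and 3553 CPM in BcorΔE9-10, 2938 CPM in BcorWT replicate 1 and 3854 CPM in BcorWT replicate 2 with *Cdk1* (494 CPM) and *Plk1* (465.4 CPM) each highest in BcorWT replicate 2. Of the 18 markers, 5 were highest and 5 were lowest in BcorWT replicate 2, so the list had no common order of the libraries.

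Other genes that act on cohesin, its relatives and Ctcf were taken as a list of 43, of which 38 were in the table. A higher level in BcorΔE9-10 was seen for 25 and a lower level for 13, with a median log2 fold change of 0.16. With a library left out, the median of an even number of genes is given as the values of the 2 middle genes. For these 38 they were 0.035 and 0.039 without BcorWT replicate 2, and 0.36 and 0.38 without BcorWT replicate 1. In edgeR 0 of the 38 passed at an adjusted or an unadjusted p under 0.05, against 0.0166% and 4.42% of all genes. Without BcorWT replicate 1 edgeR gave 15 of the 38 an unadjusted p under 0.05, and 25% of all genes in either direction. The groups did not overlap for 12 genes, 8 of them higher and 4 lower, against 16.8% and 17.1% of all genes. *Mau2*, the partner of Nipbl in loading, was at 15.0 and 16.0 CPM in BcorΔE9-10 and 16.9 and 9.03 CPM in BcorWT with a log2 fold change of 0.27 (standard error 0.44), which turned to -0.13 without BcorWT replicate 2 and was 0.77 without BcorWT replicate 1. BcorWT replicate 2 was its lowest library and BcorWT replicate 1 its highest. The acetyltransferases that lock the ring had log2 fold changes of 0.47 (*Esco1*, standard error 0.46) and 0.24 (*Esco2*, standard error 0.48), and the Smc3 deacetylase *Hdac8* one of -0.12 (standard error 0.42). These values depended on single libraries. Without BcorWT replicate 2 *Esco2* was at -0.26 and *Hdac8* at 0.32, and without BcorΔE9-10 replicate 2 *Esco1* was at 0.16, *Esco2* at -0.16 and *Hdac8* at 0.086. Without BcorWT replicate 1 *Esco1* was at 0.76, *Esco2* at 0.95 and *Hdac8* at -0.45.

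Genes that protect or cut the ring at mitosis had a median log2 fold change of -0.10, with 4 of 9 higher. Its direction depended on single libraries. The median was 0.012 without BcorWT replicate 2, 0.086 without BcorWT replicate 1, 0.0041 without BcorΔE9-10 replicate 1 and -0.079 without BcorΔE9-10 replicate 2. *Cdca5* (sororin), which counters Wapl, was at 25.5 and 24.8 CPM against 21.0 and 32.7 CPM, with a log2 fold change of -0.10. That value turned to 0.26 without BcorWT replicate 2 and was -0.38 without BcorWT replicate 1. *Espl1* (separase), which cuts Rad21, was at 21.8 and 20.2 CPM against 21.0 and 40.8 CPM, so that BcorWT replicate 2 was here the highest library. The log2 fold change of -0.57 came to -0.0020 without that library and to -0.96 without BcorWT replicate 1. *Pttg1* (securin), which holds separase inactive, was at 11.3 and 11.6 CPM against 21.3 and 18.8 CPM, lower in both BcorΔE9-10 libraries (log2 fold change -0.81 with a standard error of 0.37, adjusted p in edgeR 0.945). Of the 5 listed genes of meiotic cohesin and the Ctcf paralogue, only the meiotic *Stag3* was in the table. It was at 16.6 and 7.50 CPM against 11.1 and 11.7 CPM, so the BcorΔE9-10 libraries lay on either side of BcorWT. The 8 condensin genes had a median of 0.43, with 5 higher and 3 lower. The 2 middle genes were at 0.19 and 0.24 without BcorWT replicate 2, and at 0.83 and 0.86 without BcorWT replicate 1. *Smc2* and *Smc4*, the SMC subunits of condensin, were singled out after their values were seen. *Smc2* was at 258.7 and 271.7 CPM against 224.3 and 146.2 CPM, and *Smc4* at 334.1 and 430.2 CPM against 295.2 and 167.1 CPM, both with BcorWT replicate 2 lowest. Without that library their log2 fold changes went from 0.52 to 0.24 and from 0.73 to 0.37. Without BcorWT replicate 1 they were 0.86 and 1.19. The 6 genes of the Smc5/6 complex had a median of 0.17 and the 10 Ctcf-associated and looping factors one of 0.16. Without BcorWT replicate 2 the 2 middle genes of the former were at -0.038 and 0.035, and those of the latter at -0.25 and 0.042. Without BcorWT replicate 1 the middle genes were at 0.14 and 0.55, and at 0.36 and 0.58.

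**Figure D5:**
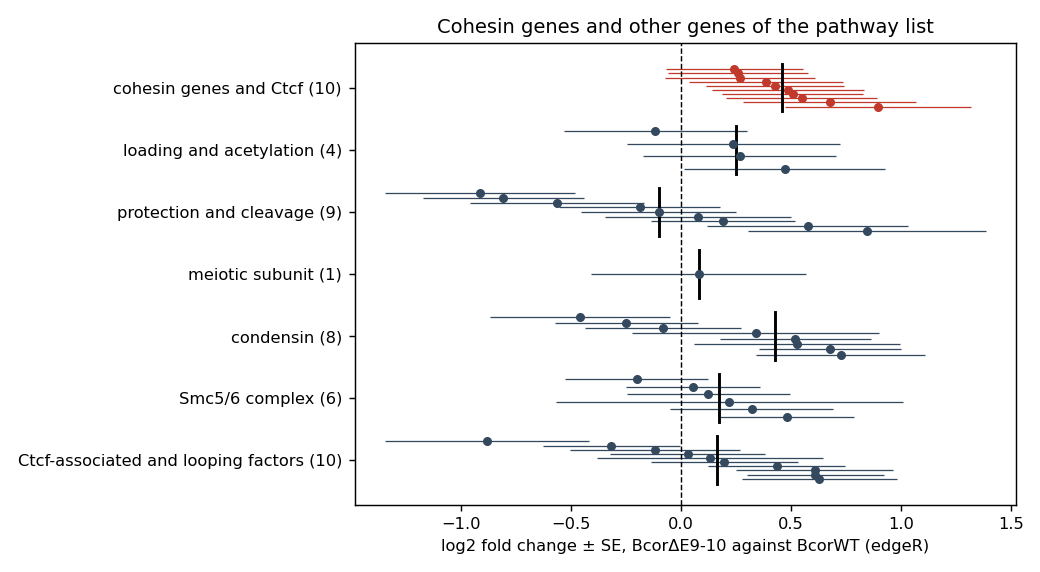
Log2 fold change of each gene with its standard error (edgeR, BcorΔE9-10 against BcorWT), by subgroup, with the number of genes in brackets and a vertical bar at the median of each subgroup. The 10 genes (red, cohesin and *Ctcf*) all lie above 0 around a median of 0.46, while the other subgroups lie on both sides of 0 except for the lone meiotic gene.

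The 10 genes share long transcripts, as annotated in GENCODE M21. The longest transcript ran from 3782 bases (*Ctcf*) to 9423 bases (*Nipbl*), longer than that of 62.9% and 97.3% of the genes in the table. Across 11948 genes with an annotated transcript, which are not independent and share 4 libraries, length had a Spearman's rho of 0.12 with the log2 fold change between genotypes. Between single libraries rho was 0.14 for BcorWT replicate 1 minus replicate 2, 0.13 and 0.16 for the BcorΔE9-10 replicates minus BcorWT replicate 2, and -0.020 and 0.032 for the same replicates minus BcorWT replicate 1. The part of length in the difference of the 10 genes was not tested. Sequence shared with other transcripts makes some counts uncertain, most where it lies near the 3′ end. Transcripts of *Pds5a* and *Wapl* carry stretches of 100 bases or more that match transcripts of other genes at 95% identity or above, within 33 and 220 bases of the transcript end for *Timm17a* and *Focad*. *Smc3* matches the processed pseudogenes *Gm11204* (96.6% over 147 bases) and AC154766.2, each 1055 bases from the transcript end. Neither pseudogene is among the genes of the table. *Ctcf* matches *Gm5914*, which is in the table, at 100% over 235 bases on the opposite strand, where their exons overlap. That overlap lies at the 5′ end of *Ctcf*, since *Gm5914* ends at chr8:105637485 and *Ctcf* runs to chr8:105682922. Reads near the 3′ end of full-length *Ctcf* transcripts lie outside it. The sources used here do not say whether counting used strand.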

How the data were processed

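Quant-seq 3′ libraries of donor-derived KL cells were analysed, 2 BcorΔE9-10 and 2 BcorWT. Per the authors, reads under Q30 were dropped, cutadapt trimmed the random-primer bases at the 5′ end, poly-A sequence was trimmed at the 3′ end, HISAT2 aligned them to the mm10 genome, and featureCounts of Subread assigned them to genes. The deposited values are unnormalized counts for BcorΔE9-10 replicate 1 and BcorWT replicate 2. For the other two libraries the deposited values were treated as estimated counts, because 1 gene, not among those described, has values that are not whole. The filter behind the table is not given in the sources used here. Counts were rounded.

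edgeR 4.0.16 in R 4.3.3 was fitted to all 12067 genes without covariates, with filterByExpr (0 genes removed), TMM scaling, the quasi-likelihood F test, a prior count of 0.125 and Benjamini-Hochberg adjustment over all genes. The standard error was the log2 fold change divided by the square root of F, and intervals used the t quantile of the fit. CPM were TMM-scaled. The floor of 3 counts and the 95% Wilson intervals of shares cover counting error only. Alternatives were DESeq2 1.42.0 and its size factors, limma-voom (limma 3.58.1), omission of the filter, a minimum of 10 counts per library, a replicate block, a prior count of 2, no *Gm42418*, and each library left out. The replicate numbers come from the labels and do not mark shared animals. Positions came from GENCODE M21 (GRCm38), promoters from RefSeq, and similar transcripts from blastn 2.17.0. The fit was tested on simulated data.

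The genes and lists were chosen with earlier results of these data known. Named were the 10 genes whatever their values, from the further list *Mau2*, *Esco1*, *Esco2*, *Cdca5*, *Hdac8*, *Espl1*, *Pttg1*, *Stag3* and any gene with an unadjusted p under 0.05 (none), with *Bcor*, *Kit* and *Ly6a*. *Smc2*, *Smc4*, *Gm42418* and the single genes named from the marker lists fall outside this rule and were chosen after their values were seen. No genes were ranked by likeness of pattern, as 4 libraries are too few.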

Additional observations from a re-analysis of the deposited data

How the results depend on the processing

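Of 120 values of the 10 genes under 12 alternatives, 118 kept their direction and their side of the threshold. The log2 fold change of *Stag1* ranged from -0.026 (without BcorWT replicate 2) to 0.62 (without BcorWT replicate 1), and *Nipbl* passed without BcorWT replicate 1. The count of the 10 genes at an adjusted p under 0.05 was 0 to 1 with a library left out and 0 otherwise, and at an unadjusted p under 0.05 it was 1 with limma-voom (4.27% of all genes) and 0 to 5 with a library left out, 5 without BcorWT replicate 1 (25% of all genes). The median log2 fold change ranged from 0.23 (without BcorWT replicate 2) to 0.66 (without BcorWT replicate 1). Over all genes edgeR called 2, against 5 with at least 10 counts in every library, 14 with the replicate block, 4 with limma-voom, 43 with DESeq2 and 6 to 596 with a library left out, 596 of them without BcorWT replicate 1. For the list of 38 further genes the unadjusted count of 0 became 1 with DESeq2 (4.19% of all genes) and 0 to 15 with a library left out, 15 without BcorWT replicate 1 (25% of all genes). The difference of the *Stag2* share, 2.16 percentage points, ranged from -4.84 to 9.15 and was -1.06 without BcorΔE9-10 replicate 2 and -4.84 without BcorWT replicate 1, and that of the *Pds5b* share, -6.19, from -8.64 to -3.74. The causes were not tested, except that leaving out a library leaves 1 in its group, assumed to vary like the other group. Same-numbered libraries had deviations that correlated at -0.094, and the replicate block changed no call of the 10 genes. With 2 libraries a genotype, the intervals of the 10 genes reach from below 0 to between 0.96 and 1.88.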
